A study of Homo sapiens with 8 samples.

Results

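Cholesterol and fatty acid synthesis was followed through the mRNAs of 30 genes in Panc1, an established human cell line of pancreatic ductal adenocarcinoma. They were chosen by name: 6 enzymes of the early mevalonate pathway, 11 enzymes from squalene to cholesterol, 6 regulators and carriers of the sterol response, and 7 genes of fatty acid synthesis and desaturation. All 30 were among the 15176 genes of the expression table, and all 30 passed the filter on low values that left 13112 genes for testing. RNA had been sequenced in 8 libraries of 3 groups. A control siRNA (siCtrl) was combined with 21% oxygen, here normoxia, in libraries 1 and 4, and with 1% oxygen, here hypoxia, in libraries 2, 5 and 8. Libraries 3, 6 and 9 combined 1% oxygen with an siRNA that targets SF3B1 (siSF3B1), a spliceosome subunit that binds at the branch point. An 8 hour exposure is stated for siSF3B1 cells, and the labels do not make clear whether it also holds for siCtrl cells. All groups therefore carry an siRNA, and siSF3B1 cells at 21% oxygen were not analysed here. Separate cultures are not stated, so every p-value measures the spread between libraries alone, and that spread may be technical.

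Cells make cholesterol from acetyl-CoA. HMG-CoA is made and reduced to mevalonate, mevalonate is phosphorylated and decarboxylated to isoprenoid units, and these are joined to squalene, which is oxidised, closed into lanosterol and trimmed to cholesterol. Several of the late enzymes, and the desaturases that put double bonds into fatty acids, use molecular oxygen as a substrate. The SREBP transcription factors, encoded by SREBF1 and SREBF2, are held in the endoplasmic reticulum by SCAP and the INSIG proteins when sterols are plentiful. When sterols fall they are carried to the Golgi, cut, and switch on most of the genes of both pathways.

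Levels are in log2 CPM, the log2 of reads scaled to library size, and changes are log2 fold changes unless a fold is named. They come from 20496492 to 25257173 reads per library. A count of 3 reads corresponds to 0.114 to 0.158 CPM. The targeted SF3B1 mRNA was at 8.88 ± 0.013 log2 CPM (SD) in 2 normoxic siCtrl libraries, 8.77 ± 0.084 (SD) in 3 hypoxic siCtrl libraries and 5.35 ± 0.14 (SD) in 3 siSF3B1 libraries, a log2 fold change of -3.42 with the siRNA (SE 0.078, limma adjusted p = 9.69e-09). Of 7 markers of ductal epithelium all were listed, with KRT8 at 11.35 to 12.6 log2 CPM, KRT19 at 9.84 to 11.11, EPCAM at 2.81 to 3.31 and KRT17 at -3.52 to -0.97. With the siRNA 3 of the 6 tested were called higher and 1 lower. Their summed level, mostly KRT8, KRT18 and KRT19, was 5220 to 6160 CPM in siCtrl normoxia, 4850 to 6180 in siCtrl hypoxia and 8080 to 10800 in siSF3B1 hypoxia. KRT7 went the other way, at 3.32 to 3.6 log2 CPM in the siCtrl libraries and 1.69 to 2.37 in the siSF3B1 libraries. SOX9 was at 7.21 to 7.78 over all libraries. Of 7 blood and endothelial markers only CD68, at 6.71 to 7.84 log2 CPM, and CD14, at -0.65 to 1.69, were listed. Their summed levels, mostly CD68, were 105 to 150, 122 to 167 and 170 to 230 CPM, and both were called higher with the siRNA. CD14 was at -0.65 to 0.28 log2 CPM in siCtrl libraries, so it passed the filter on low values only through the siSF3B1 libraries. With the siRNA 35.0% of all tested genes were called higher and 30.9% lower. Of 6 fibroblast markers COL1A1, COL3A1 and PDGFRB were listed, with summed levels of 17.5 to 41.3, 23.8 to 55.6 and 14.7 to 38 CPM. The part of these shifts in the results that follow was not tested. In bulk RNA, fewer cells of a kind and less of an mRNA per cell cannot be told apart.

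The promoters of 4 members are shown as examples. They are INSIG2, the one member called in hypoxia, and INSIG1, its close relative. The others are LSS, which fell 3.01-fold with SF3B1 siRNA, and SREBF2, which encodes the sterol-regulated factor itself. Members that changed more than SREBF2 with the siRNA, such as FADS2 and ELOVL6, are not shown. Each printed promoter is the 250 bases before a RefSeq transcription start on GRCh38.p14, 5′ to 3′ on the gene's strand. Capitals mark CACNCCAC, a form of the sterol response element, CCAAT, the box bound by NF-Y, and ACGTG, a HIF core, each on either strand, where it reads as GTGGNGTG, ATTGG or CACGT.
INSIG2, chr2:118088221-118088470, plus strand: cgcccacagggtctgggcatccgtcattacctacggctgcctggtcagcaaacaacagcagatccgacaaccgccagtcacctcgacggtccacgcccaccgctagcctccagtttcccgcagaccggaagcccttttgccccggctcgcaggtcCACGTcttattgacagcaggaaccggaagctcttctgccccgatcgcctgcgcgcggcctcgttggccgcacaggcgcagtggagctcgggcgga
INSIG1, chr7:155297628-155297877, plus strand: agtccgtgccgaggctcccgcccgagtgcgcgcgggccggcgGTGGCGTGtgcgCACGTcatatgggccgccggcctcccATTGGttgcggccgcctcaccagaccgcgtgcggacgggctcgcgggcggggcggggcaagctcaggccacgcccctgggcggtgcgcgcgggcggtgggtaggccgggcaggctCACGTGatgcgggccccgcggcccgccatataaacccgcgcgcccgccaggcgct
LSS, chr21:46228775-46229024, minus strand: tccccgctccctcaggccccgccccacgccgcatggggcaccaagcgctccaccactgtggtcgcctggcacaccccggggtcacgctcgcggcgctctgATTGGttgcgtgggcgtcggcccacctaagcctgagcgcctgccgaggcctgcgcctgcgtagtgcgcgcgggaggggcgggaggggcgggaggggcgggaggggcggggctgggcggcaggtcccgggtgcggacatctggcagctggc
SREBF2, chr22:41832855-41833104, plus strand: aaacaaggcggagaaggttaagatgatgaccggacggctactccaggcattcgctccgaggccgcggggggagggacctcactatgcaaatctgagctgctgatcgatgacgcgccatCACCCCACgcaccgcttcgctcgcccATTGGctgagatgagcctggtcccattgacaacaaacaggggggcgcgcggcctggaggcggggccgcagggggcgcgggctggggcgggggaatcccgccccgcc
The INSIG2 window holds ACGTG letters and neither of the other 2 forms. INSIG1 holds all 3, LSS a CCAAT box, and SREBF2 a CCAAT box and CACNCCAC letters.

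RefSeq windows of 300 bases (250 before and 50 after the start) were matched by gene ID for 27 of the 30 members; FDFT1, SQLE and FASN had none. Some members have several starts, and the first listed window of each gene was counted. CCAAT was present in 17 of 27 members (63%), against 35.7% of the 27305 genes with a window and 36.6% of the 10399 of them that were tested. CACNCCAC was present in 4 (14.8%), INSIG1, SC5D, SCD and SREBF2, against 5.74% of all and 5.66% of tested genes, and the longer form TCACNCCAC, which contains it, in SREBF2 alone, against 1.15% and 1.07%. IDI1 and ACACA hold CACNCCAC in another listed window, which was not counted. GGGCGG, the SP1 box, was present in 25 members (92.6%), against 44.6% of all and 71% of tested genes. The E-box CANGTG was present in 10 members (37%), against 42.2% of all and 36.9% of tested genes, and CACGTG, one of its forms, in 4 (14.8%), against 7.43% and 10.3%. The HIF core ACGTG was present in 7 members (25.9%), letters that CACGTG contains, against 21.6% of all and 27.1% of tested genes. GCGTG was present in 21 members (77.8%), against 36.3% and 51.8%. These are letter matches on either strand and were not tested.

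Levels were compared between members per kilobase of exon. In siCtrl normoxia the fatty acid genes stood at both ends of the order. SCD, the stearoyl-CoA desaturase, was highest at 6.86 ± 0.44 log2 CPM per kilobase (SD, n = 2), followed by FASN, the fatty acid synthase, at 5.91 ± 0.45 and ACLY, which makes cytosolic acetyl-CoA from citrate, at 5.82 ± 0.13. FASN and ACLY were closer to each other than the spread of FASN, while both SCD libraries were above both of FASN and of ACLY. ELOVL6, an elongase of saturated and monounsaturated fatty acids, was lowest at -2.31 ± 0.44, below HSD17B7 at 1.25 ± 0.42 and INSIG2 at 1.47 ± 0.01. The highest sterol enzymes were NSDHL at 5.39 ± 0.13, DHCR7 at 5.31 ± 0.41 and CYP51A1 at 5.11 ± 0.24, which lay within about the spread of DHCR7. The members had a median of 10 exons in their longest-spliced transcript, from 5 to 56, against 9 over the tested genes with a GENCODE 29 model, and a median gene length of 23.2 against 31.6 kb.

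**Figure D1:**
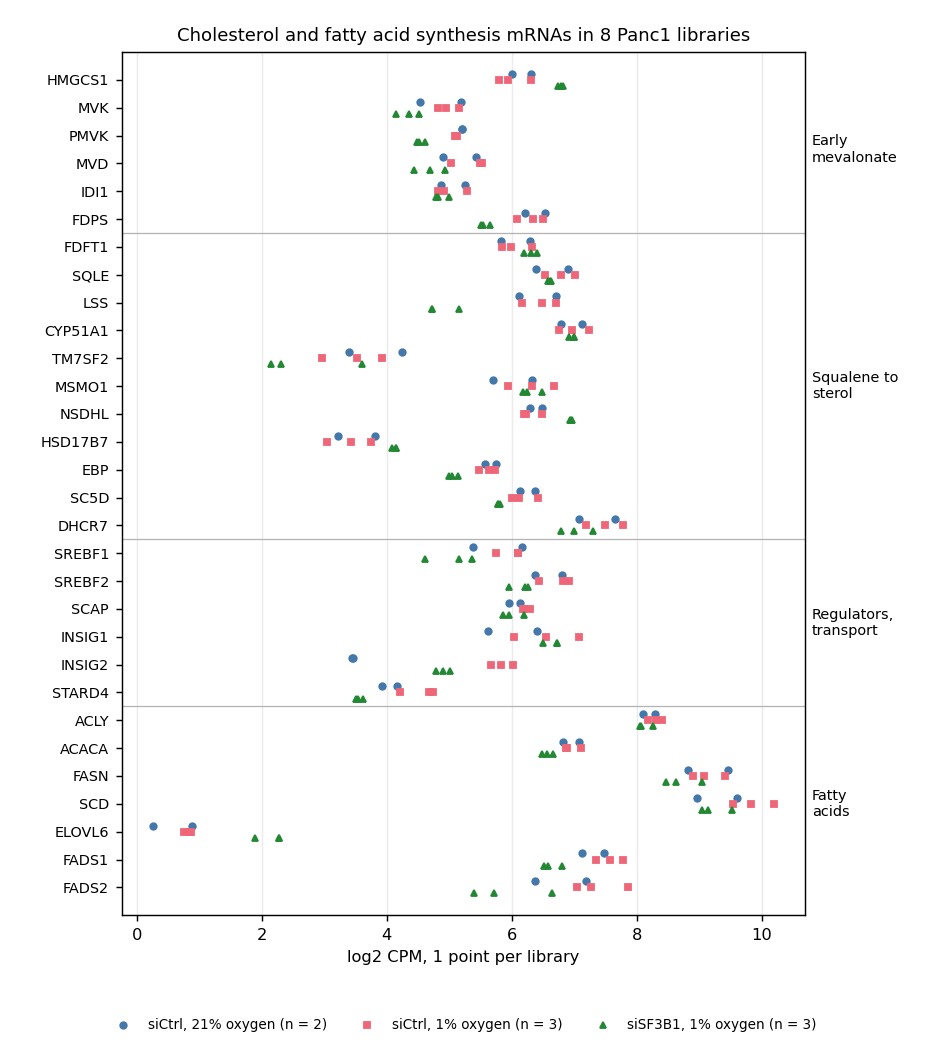
Level of each of the 30 mRNAs in log2 CPM, 1 point per library, for siCtrl at 21% oxygen (circles, n = 2), siCtrl at 1% oxygen (squares, n = 3) and siSF3B1 at 1% oxygen (triangles, n = 3); INSIG2 circles at 3.44 and 3.46 are apart from all squares, and LSS triangles lie below all other LSS points. These values are not divided by length, so they compare groups within a gene.

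How low oxygen acts on both pathways was asked by comparing the hypoxic with the normoxic siCtrl libraries. Of the 30 members, 1 rose and 0 fell (limma adjusted p under 0.05), while 741 of the 13112 tested genes were called, that is 5.65%, with 4.35% higher and 1.30% lower. The one that rose was INSIG2, which holds SCAP in the endoplasmic reticulum. The median log2 fold change of the members was 0.11, against -0.02 over all tested genes. At an unadjusted p under 0.05 the counts were 3 higher and 0 lower, a threshold at which the share of all tested genes was not counted. With the library-number block described next 7 members were higher and 0 lower, beside 1048 higher and 597 lower of all tested genes.

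INSIG2 lies on chromosome 2, 118088452 to 118110997 on the plus strand of GRCh38. The INSIG2 level was 3.44 and 3.46 log2 CPM in siCtrl normoxia, 5.82, 5.67 and 6.02 in siCtrl hypoxia and 4.90, 4.79 and 5.0 in siSF3B1 hypoxia. All hypoxic siCtrl libraries were above both normoxic ones, and the siSF3B1 libraries lay between the 2 siCtrl groups without overlap. Hypoxia raised it 5.25-fold, a log2 fold change of 2.39 (SE 0.112, limma adjusted p = 1.33e-06). The change was 2.3 to 2.48 when any one library was left out. INSIG1, the close relative of INSIG2, stood at 6.40 and 5.61 log2 CPM in siCtrl normoxia, 7.07, 6.04 and 6.55 in siCtrl hypoxia and 6.73, 6.50 and 6.72 in siSF3B1 hypoxia. Its siCtrl groups overlapped, since library 1 was above library 5, and its change of 0.55 (SE 0.276, limma adjusted p = 0.309) did not pass the test.

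Library numbers in the titles fall into sets, 1 to 3, 4 to 6 and 8 with 9, whose libraries deviated together from their group means, so the sets were also fitted as a block. With this block 7 members rose and 0 fell, while 1645 of all tested genes were called. The 6 added members were SCD, FADS2, FADS1, MSMO1, INSIG1 and STARD4. FADS2, the delta-6 desaturase, gave 0.78 (SE 0.111, limma adjusted p = 0.000386) and SCD 0.62 (SE 0.077, adjusted p = 0.000118). INSIG1 gave 0.53 (SE 0.127, adjusted p = 0.0151), STARD4, a carrier of cholesterol between membranes, 0.45 (SE 0.117, adjusted p = 0.0222), MSMO1, the sterol C4-methyl oxidase, 0.32 (SE 0.087, adjusted p = 0.032), and FADS1, the delta-5 desaturase, 0.30 (SE 0.068, adjusted p = 0.0119). Without the block these 6 were not called, with adjusted p from 0.106 for STARD4 to 0.481 for MSMO1. STARD4 was also called, at 0.67 (adjusted p = 0.0158), when library 5 was left out.

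The values within the sets are given for 3 of them. SCD stood at 9.60 and 8.97 log2 CPM in siCtrl normoxia, 10.20, 9.54 and 9.83 in siCtrl hypoxia and 9.52, 9.15 and 9.04 in siSF3B1 hypoxia. Hypoxia minus normoxia was 0.60 between libraries 2 and 1 and 0.57 between libraries 5 and 4. FADS2 stood at 7.18 and 6.37 log2 CPM in siCtrl normoxia, 7.87, 7.05 and 7.27 in siCtrl hypoxia and 6.64, 5.72 and 5.39 in siSF3B1 hypoxia. Its difference was 0.68 in both sets, while library 5 at 7.05 was below library 1 at 7.18. MSMO1 stood at 6.32 and 5.70 log2 CPM in siCtrl normoxia, 6.68, 5.94 and 6.32 in siCtrl hypoxia and 6.49, 6.18 and 6.25 in siSF3B1 hypoxia. It differed by 0.36 and 0.24 within the sets. Over both sets 16 of 30 members were higher in hypoxia each time and 5 were lower each time, against 32.7% and 39.8% of all tested genes.

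**Figure D2:**
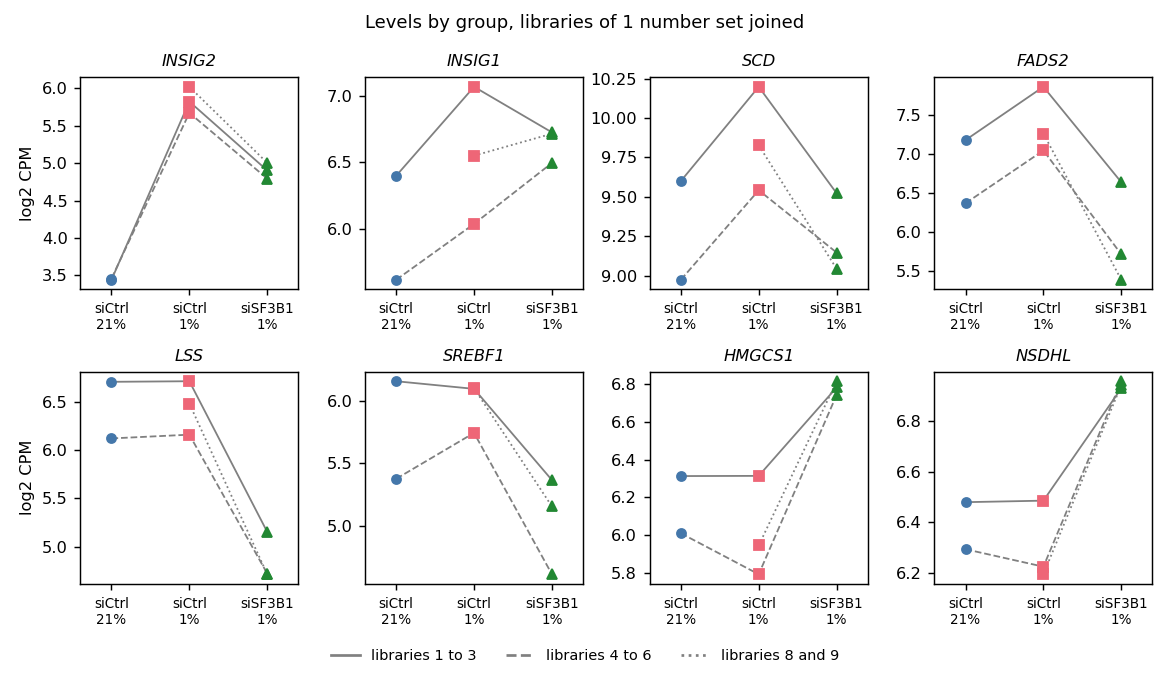
Log2 CPM of 8 members in the 3 groups, with libraries of 1 number set joined by a line (solid for 1 to 3, dashed for 4 to 6, dotted for 8 and 9). SCD and FADS2 rose from 21% to 1% oxygen along both lines although the lines are apart, INSIG2 rose steeply, and LSS and SREBF1 fell with siSF3B1 where HMGCS1 and NSDHL rose.

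The members that use molecular oxygen as a substrate are SQLE, CYP51A1, MSMO1, SC5D, SCD, FADS1 and FADS2. Their median hypoxia change was 0.27, with 0 of 7 called without the block (1 higher at an unadjusted p under 0.05). With the block 4 were higher, MSMO1, SCD, FADS1 and FADS2, beside 1048 of the 13112 tested genes. INSIG2, INSIG1 and STARD4, which are outside this list, were also called higher with it. SQLE, the squalene epoxidase, gave 0.14 (SE 0.156, limma adjusted p = 0.676), CYP51A1, the lanosterol demethylase, 0.03 (SE 0.134, limma adjusted p = 0.936), and SC5D, the sterol C5-desaturase, -0.07 (SE 0.12, limma adjusted p = 0.791). None of these 3 was called in either fit. By step, the medians were -0.06 for the 6 early mevalonate genes, -0.02 for the 11 squalene and sterol genes, 0.36 for the 6 regulators and 0.25 for the 7 fatty acid genes.

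Some of the members that were not called are given with the interval of their difference. HMGCS1, the HMG-CoA synthase, gave -0.14 (95% CI -0.46 to 0.17), FDPS, the farnesyl diphosphate synthase, -0.06 (95% CI -0.34 to 0.23), and FDFT1, the squalene synthase, -0.02 (95% CI -0.37 to 0.33). FASN gave -0.01 (95% CI -0.49 to 0.47), ACACA, the acetyl-CoA carboxylase, -0.001 (95% CI -0.23 to 0.22), and ACLY 0.10 (95% CI -0.10 to 0.31). SREBF1 gave 0.21 (95% CI -0.34 to 0.77), SREBF2 0.14 (95% CI -0.22 to 0.50) and SCAP, the SREBP escort, 0.18 (95% CI -0.06 to 0.41). The widest interval was that of TM7SF2, a sterol C14-reductase, at -0.35 (95% CI -1.31 to 0.61). Of the remaining members, also not called, MVK gave 0.11, MVD 0.18, LSS 0.04, DHCR7 0.12 and ELOVL6 0.25. PMVK gave -0.10, IDI1 -0.055, NSDHL -0.085, HSD17B7 -0.10 and EBP -0.04.

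**Figure D3:**
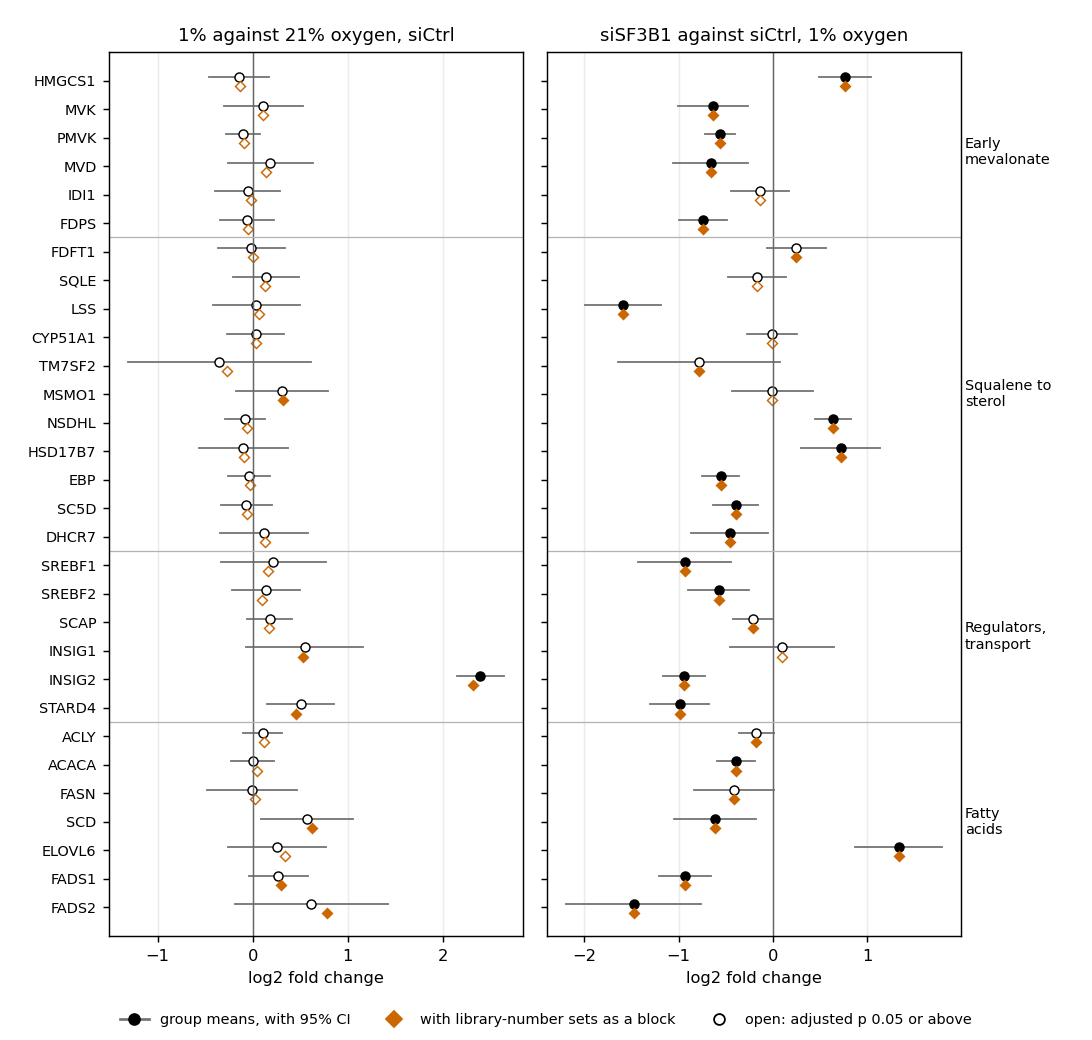
Log2 fold change of each member in hypoxia (left) and with SF3B1 siRNA in hypoxia (right), from group means of 8 libraries with the 95% CI (circles) and from the fit with a block for number sets (diamonds); open symbols have an adjusted p of 0.05 or above. In hypoxia 1 circle and 7 diamonds are filled, all to the right of 0, and with the siRNA 16 filled circles lie to the left and 4 to the right.

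The effect of SF3B1 siRNA was read between the hypoxic groups. Of the 30 members 4 rose and 16 fell, 20 in all (66.7% of the members), while 66.0% of all tested genes were called, 35.0% higher and 30.9% lower. The share called was thus close to that of all genes, and the division by direction was 4 to 16 where over all genes it was 4595 to 4055. The median member changed by -0.44 against 0.03 over all tested genes. Within the number sets 19 of 30 members were lower in all 3 sets and 5 higher in all 3, against 38.4% and 43.1% of tested genes. With plain read totals in place of the authors' scaling the median of all genes moved by over 0.1, to -0.10, and 41.7% of called genes were higher in place of 53.1% (64.7% in place of 76.9% in hypoxia). The members then split into 4 higher and 19 lower.

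Of the 6 early mevalonate genes 4 fell and HMGCS1 rose, with a median of -0.60. HMGCS1 (chromosome 5, 43289395 to 43313512, minus strand) makes HMG-CoA. The HMGCS1 level was 6.31 and 6.01 log2 CPM in siCtrl normoxia, 6.31, 5.79 and 5.94 in siCtrl hypoxia and 6.78, 6.74 and 6.82 in siSF3B1 hypoxia. All siSF3B1 libraries were above all siCtrl libraries. The siRNA raised it 1.7-fold, 0.77 (SE 0.125, limma adjusted p = 0.000369). FDPS was at 6.53 and 6.21 log2 CPM in siCtrl normoxia, 6.51, 6.09 and 6.33 in siCtrl hypoxia and 5.54, 5.65 and 5.51 in siSF3B1 hypoxia. Its siSF3B1 libraries were below all others, and it fell by 0.74 (SE 0.114, limma adjusted p = 0.000236). FDPS has a listed near-copy, the pseudogene FDPSP2, so its reads are uncertain to that extent.

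The kinases and the decarboxylase between them also fell. PMVK, the phosphomevalonate kinase, was at 5.21 and 5.21 log2 CPM in siCtrl normoxia, 5.12, 5.11 and 5.08 in siCtrl hypoxia and 4.62, 4.48 and 4.51 in siSF3B1 hypoxia. It fell by 0.57 (SE 0.071, limma adjusted p = 6.19e-05), with no overlap between siSF3B1 and siCtrl libraries. MVK, the mevalonate kinase, stood at 5.19 and 4.53 log2 CPM in siCtrl normoxia, 5.15, 4.82 and 4.95 in siCtrl hypoxia and 4.52, 4.14 and 4.35 in siSF3B1 hypoxia. It fell by 0.64 (SE 0.166, limma adjusted p = 0.00648), and the highest siSF3B1 library, 4.52, was just below the lowest siCtrl one, 4.53. MVD, the diphosphomevalonate decarboxylase, stood at 5.42 and 4.90 log2 CPM in siCtrl normoxia, 5.49, 5.02 and 5.52 in siCtrl hypoxia and 4.93, 4.43 and 4.69 in siSF3B1 hypoxia. It fell by 0.66 (SE 0.178, limma adjusted p = 0.00786), below every hypoxic siCtrl library but overlapping the normoxic ones. IDI1, the isopentenyl diphosphate isomerase, was not called, at -0.14 (SE 0.137, limma adjusted p = 0.39).

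From squalene to cholesterol 4 genes fell and 2 rose, 5 had no call, and the median was -0.17. LSS (chromosome 21, 46188141 to 46228824, minus strand) closes oxidised squalene into lanosterol. The LSS level was 6.71 and 6.12 log2 CPM in siCtrl normoxia, 6.71, 6.16 and 6.48 in siCtrl hypoxia and 5.15, 4.72 and 4.71 in siSF3B1 hypoxia. All siSF3B1 libraries were below all others, from 5.15 downward against 6.12 upward. It fell 3.01-fold, -1.59 (SE 0.182, limma adjusted p = 3.24e-05), and the change was -1.73 to -1.46 when one library was left out. Its fold change was the lowest of the 30 members, but that of FADS2 was within its error of it, and without library 3 FADS2, at -1.84, was below LSS, at -1.73.

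NSDHL and HSD17B7, which act with MSMO1 in the removal of the C4 methyl groups, both rose. NSDHL stood at 6.48 and 6.29 log2 CPM in siCtrl normoxia, 6.49, 6.23 and 6.20 in siCtrl hypoxia and 6.93, 6.96 and 6.94 in siSF3B1 hypoxia. It rose by 0.64 (SE 0.086, limma adjusted p = 9.35e-05), and the 3 siSF3B1 libraries lay between 6.93 and 6.96, above all others. HSD17B7 stood at 3.80 and 3.21 log2 CPM in siCtrl normoxia, 3.75, 3.05 and 3.43 in siCtrl hypoxia and 4.15, 4.15 and 4.07 in siSF3B1 hypoxia. It rose by 0.72 (SE 0.188, adjusted p = 0.00661), above all siCtrl libraries. HSD17B7 also has a listed pseudogene, HSD17B7P2, that can share its reads.

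The last steps fell. EBP, the sterol isomerase, was at 5.74 and 5.58 log2 CPM in siCtrl normoxia, 5.74, 5.47 and 5.64 in siCtrl hypoxia and 5.14, 5.04 and 4.99 in siSF3B1 hypoxia. It fell by 0.56 (SE 0.088, limma adjusted p = 0.000291), with all siSF3B1 libraries below all others. SC5D was at 6.38 and 6.13 log2 CPM in siCtrl normoxia, 6.43, 6.0 and 6.12 in siCtrl hypoxia and 5.77, 5.77 and 5.82 in siSF3B1 hypoxia. It fell by 0.40 (SE 0.108, limma adjusted p = 0.00833), also without overlap. DHCR7, which makes cholesterol from its last precursor, was at 7.66 and 7.08 log2 CPM in siCtrl normoxia, 7.79, 7.18 and 7.49 in siCtrl hypoxia and 7.30, 6.80 and 6.99 in siSF3B1 hypoxia. It fell by 0.46 (SE 0.185, limma adjusted p = 0.0485), its groups overlapped, and the call was lost when library 2, 8, 6 or 9 was left out (adjusted p 0.0964 to 0.184). With libraries centred on their median it was 0.0662.

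The steps that sit between were not called. SQLE gave -0.17 (95% CI -0.48 to 0.14), CYP51A1 -0.01 (95% CI -0.28 to 0.25) and MSMO1 -0.01 (95% CI -0.44 to 0.42). FDFT1 gave 0.25 (95% CI -0.06 to 0.56) and was called with the block (adjusted p = 0.00384). TM7SF2 stood at 4.25 and 3.39 log2 CPM in siCtrl normoxia, 3.92, 2.96 and 3.52 in siCtrl hypoxia and 3.61, 2.15 and 2.30 in siSF3B1 hypoxia. Library 3 was higher than the other siSF3B1 libraries and lay among the siCtrl libraries, and the change was -0.78 (SE 0.386, limma adjusted p = 0.0981). It was called with the block (adjusted p = 0.000389) and, at -1.24 (adjusted p = 0.00442), without library 3.

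Among the regulators 4 of 6 fell and 0 rose by limma (5 and 0 at an unadjusted p under 0.05, and 5 and 0 with the block), and the median was -0.76. INSIG2, at the levels given above, fell by 0.94 (SE 0.1, limma adjusted p = 1.93e-05), to a level still above normoxia. SREBF1 stood at 6.16 and 5.38 log2 CPM in siCtrl normoxia, 6.10, 5.74 and 6.10 in siCtrl hypoxia and 5.37, 4.61 and 5.16 in siSF3B1 hypoxia. It fell by 0.94 (SE 0.222, limma adjusted p = 0.00385), with its highest siSF3B1 library, 5.37, just under the lowest siCtrl one, 5.38. SREBF2 stood at 6.80 and 6.37 log2 CPM in siCtrl normoxia, 6.92, 6.43 and 6.81 in siCtrl hypoxia and 6.26, 5.96 and 6.21 in siSF3B1 hypoxia. It fell by 0.58 (SE 0.145, limma adjusted p = 0.00538), below all siCtrl libraries. STARD4 stood at 4.16 and 3.91 log2 CPM in siCtrl normoxia, 4.74, 4.21 and 4.67 in siCtrl hypoxia and 3.54, 3.51 and 3.61 in siSF3B1 hypoxia. It fell by 0.99 (SE 0.141, limma adjusted p = 0.000143), and all siSF3B1 libraries were below all others.

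SCAP and INSIG1 were not called. SCAP gave -0.21 (SE 0.093, limma adjusted p = 0.0673), and was called with the block at the same change (adjusted p = 0.0147). SCAP was also called lower with plain read totals, at -0.34 (adjusted p = 0.0115), and with quantile normalization, at -0.27 (adjusted p = 0.0352). Without library 3 it was called at -0.31 (adjusted p = 0.00689). INSIG1, itself switched on by SREBPs, gave 0.09 (SE 0.247, limma adjusted p = 0.753), with -0.35, 0.46 and 0.17 within the 3 sets, so its direction differed between them. HMGCS1, NSDHL, HSD17B7 and ELOVL6, in contrast, were higher in each of the 3 sets.

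Of the fatty acid genes 4 fell and 1 rose, with a median of -0.41. FADS2 (chromosome 11, 61792980 to 61867354, plus strand), whose values are given above, fell 2.78-fold, -1.48 (SE 0.322, limma adjusted p = 0.00236), and its 3 siSF3B1 libraries, at 6.64, 5.72 and 5.39, were below every hypoxic siCtrl library but overlapped the normoxic ones. FADS1 was at 7.47 and 7.13 log2 CPM in siCtrl normoxia, 7.79, 7.35 and 7.57 in siCtrl hypoxia and 6.80, 6.58 and 6.52 in siSF3B1 hypoxia. It fell by 0.94 (SE 0.124, limma adjusted p = 8.75e-05), with no overlap. FADS1 and FADS2 lie on opposite strands and share 490 exon bases. Counting by strand is not stated in the sources used here, so reads from the shared part cannot be assigned.

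SCD fell by 0.62 (SE 0.196, limma adjusted p = 0.0176) and lost the call without library 2 (adjusted p = 0.0728) or library 9 (0.0716). ACACA stood at 7.08 and 6.83 log2 CPM in siCtrl normoxia, 7.11, 6.89 and 6.87 in siCtrl hypoxia and 6.56, 6.66 and 6.48 in siSF3B1 hypoxia. It fell by 0.39 (SE 0.09, limma adjusted p = 0.00333), with no overlap. FASN gave -0.41 (SE 0.192, limma adjusted p = 0.0814), and ACLY -0.18 (SE 0.084, limma adjusted p = 0.084). Neither was called, and both were with the block, FASN at an adjusted p of 4.4e-06 and ACLY at 0.0378. FASN and ACLY were also called lower with plain read totals and with quantile normalization, at -0.54 and -0.59 for FASN and -0.31 and -0.36 for ACLY.

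ELOVL6 (chromosome 4, 110045846 to 110199199, minus strand) moved the other way. The ELOVL6 level was 0.25 and 0.87 log2 CPM in siCtrl normoxia, 0.87, 0.84 and 0.74 in siCtrl hypoxia and 2.28, 2.28 and 1.89 in siSF3B1 hypoxia. It rose 2.52-fold, 1.34 (SE 0.207, limma adjusted p = 0.000252), and all siSF3B1 libraries were above all siCtrl libraries. At these levels of 26 to 101 reads per library it was the least abundant member per kilobase in every group.

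Once number sets entered as a block, 25 members were called, 5 higher and 20 lower, beside 9663 of all genes, 5135 higher and 4528 lower. The 5 added to the 20 were FDFT1, TM7SF2, SCAP, ACLY and FASN. Exons of other members overlap neighbours too, MVK with MMAB, IDI1 with IDI2-AS1, SREBF1 with RAI1 and STARD4 with STARD4-AS1 on the opposite strand, and TM7SF2 with VPS51 and FADS2 with FEN1 on the same strand. The shared part was 0.4 to 14.8% of their exon bases.

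The third comparison set siSF3B1 hypoxia beside siCtrl normoxia and shares its libraries with the first 2. Of the members 5 were higher and 12 lower, 17 in all, while 62.4% of all tested genes were called, 34.1% higher and 28.3% lower. Without library 6 the split was 4 higher and 8 lower, and without library 9 it was 4 and 9. The split also moved when library 1 or 4 was left out. Each of those fits rests on a lone normoxic library, so their counts are not given. Of all tested genes 8125 were called without library 6 and 7373 without library 9, against 8178 in the main fit. With the number sets as a block 8 members were higher and 16 lower, beside 5009 higher and 4106 lower of all tested genes. The added members were FDFT1, MSMO1 and INSIG1 higher and MVD, DHCR7, FASN and FADS2 lower. The higher ones were HMGCS1 (0.62), NSDHL (0.56), HSD17B7 (0.62), INSIG2 (1.45, SE 0.112, limma adjusted p = 3.19e-06) and ELOVL6 (1.59). SCD gave -0.05 (95% CI -0.54 to 0.44), and its changes in the other comparisons were 0.57 and -0.62. FADS2 gave -0.86 (SE 0.36, adjusted p = 0.0596) and, with the block, -0.70 (adjusted p = 9.72e-05), beside 0.62 and -1.48 in the others. STARD4 gave -0.49 (SE 0.157, adjusted p = 0.0208), with 0.50 and -0.99. LSS was at -1.55 (SE 0.204, adjusted p = 0.000102), nearly the value of the siRNA comparison.

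Within groups most members were higher in libraries 1, 2 and 3 than in the other libraries. In siCtrl normoxia 28 of 30 were higher in library 1 than in library 4, with a median difference of 0.41, against 46.5% of all tested genes. In siCtrl hypoxia all 30 were higher in library 2 than in library 5 (median 0.47, 47.8% of genes) and 26 higher in library 2 than in library 8 (0.23, 48.8%). In siSF3B1 hypoxia 23 were higher in library 3 than in library 6 (0.21, 44.9%) and 24 higher than in library 9 (0.12, 46.9%). Between the other sets, 4 of 30 were higher in library 5 than in library 8 (median -0.22, 51.1% of genes). In library 6, 11 of 30 were higher than in library 9 (-0.06, 52.2%). Libraries 1, 2 and 3 form a set and were the highest of their groups by these medians. Of the 3 fibroblast markers listed, COL1A1 was also highest in libraries 1, 2 and 3, at 5.24 and 3.94 log2 CPM in siCtrl normoxia, 5.73, 4.43 and 5.17 in siCtrl hypoxia and 5.14, 3.62 and 4.25 in siSF3B1 hypoxia. COL3A1, at 1.2 and 0.10, at 0.38, 0.64 and 0.23, and at 0.73, 1.02 and 0.95 log2 CPM, was highest in library 1 of its group but in libraries 5 and 6 of the others. PDGFRB, at 0.57 and 0.50, at 0.43, -0.13 and 0.91, and at 0.30, -0.72 and -0.84 log2 CPM, was highest in libraries 1, 8 and 3. Library 4 was the deepest of all at 25257173 reads, and the part of depth in these differences was not tested. What the numbers stand for is not labelled, and the part of the sets in these levels beyond the blocked values was not tested.

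**Figure D4:**
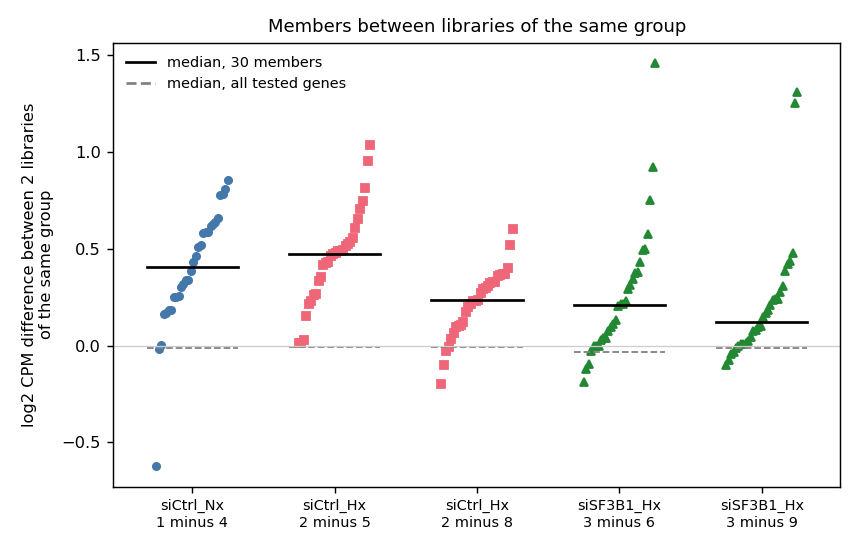
Difference in log2 CPM between 2 libraries of the same group for each of the 30 members (points, ordered by value), with the median of the members (solid line) and of all tested genes (dashed line). The member medians lie at 0.41, 0.47, 0.23, 0.21 and 0.12, while the gene medians lie from -0.033 to -0.005.

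The genes around the 2 pathways were described from 5 lists. Of 16 tested genes that process SREBPs, act in sterol-regulated protein degradation or take up lipoproteins, 4 rose and 0 fell in hypoxia, where 4.35% of all tested genes were called higher and 1.30% lower. VLDLR, a lipoprotein receptor, rose by 2.68 (SE 0.266, limma adjusted p = 0.000195) from -0.18 ± 0.404 log2 CPM (SD, n = 2). Its mean was 2.50 in siCtrl hypoxia and 1.99 in siSF3B1 hypoxia, so it passed the filter on low values only through the hypoxic groups. SCARB1, the HDL receptor, rose by 0.94 (SE 0.146, adjusted p = 0.00389). SEC24A, a COPII coat subunit, rose by 0.40 (SE 0.068, adjusted p = 0.00667), a call lost in 2 of the fits that left out a library. In the other 4 lists no gene was called in hypoxia by limma. At an unadjusted p under 0.05 they held 2, 5, 3 and 2 such genes, and with the block 3, 3, 1 and 3 were called, in the order in which they follow.

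With SF3B1 siRNA 5 of these 16 rose and 3 fell, with a median of 0.03. The counts of this and the next 4 lists stand beside 35.0% of all tested genes called higher and 30.9% lower. SEC24A rose by a further 0.94 (SE 0.061, adjusted p = 8.46e-07), while ERLIN2, an endoplasmic reticulum scaffold, fell by 1.31 (SE 0.124). Of 21 tested genes of sterol transport, storage and efflux 8 rose and 4 fell, with NR1H2, the liver X receptor beta, at 0.76 (SE 0.114), STARD3NL, a late endosomal membrane protein, at 0.46 (SE 0.079) and SOAT1, which esterifies cholesterol, at -0.66 (SE 0.088). Of 19 genes of the isoprenoid branches 6 rose and 7 fell. ICMT, which methylates prenylated proteins, fell by 1.57 (SE 0.071, adjusted p = 1.41e-07), ACAT1, a mitochondrial thiolase, by 0.79 (SE 0.078), and RABGGTB, a prenyltransferase subunit for Rab proteins, rose by 0.95 (SE 0.078).

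Of 14 genes that supply citrate, acetate, coenzyme A and NADPH 5 rose and 4 fell. The fallen ones included ACSS2, which activates acetate, at -0.78 (SE 0.117), and PGD, of the pentose phosphate pathway, at -0.42 (SE 0.078). Of 19 genes of fatty acid elongation, desaturation and activation 4 rose and 5 fell, among them HACD3 at 0.43 and HACD1 at -0.66, dehydratases of the elongation cycle, and ACSL1, an acyl-CoA synthetase, at 0.59. The medians of these 4 lists were 0.25, -0.21, 0.14 and 0.06, in the order given, against 0.03 over all tested genes and -0.44 over the 30 members. Against siCtrl normoxia genes named by the rule in the 5 lists gave 1.34 for SEC24A, 0.90 for RNF139, -0.91 for SOAT1, 0.88 for NR1H2 and -0.58 for GRAMD1A. In the same comparison ICMT gave -1.63, ACAT1 -0.73, DHDDS -0.90, PGD -0.48, ACSS2 -0.72, HACD3 0.53, HACD1 -0.64 and ACACB -0.98.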

How the data were processed

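The deposited table gives log2 CPM per gene and library, that is read counts scaled by the authors to library size with a prior count. Per the submitters' processing notes the tools were edgeR 3.24.3, featureCounts, Subread 1.5.0, STAR 2.7.0a, Trimmomatic 0.35 and SAMtools 1.9, with the build GRCh38.p13, and neither their roles nor their order is stated. The kit was a stranded one from Illumina, per the labels' protocols. No source used here states whether strand entered the counting.

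The values stepped as whole reads do, and 100% came back whole within 0.01 read (prior count 1.96 on average). Genes with a mean log2 CPM above 0 were fitted with limma 3.58.1 in R 4.3.3, with an intensity trend and 1 mean per group over all 8 libraries. Tests were two-sided with Benjamini-Hochberg adjustment over 13112 genes. Intervals cover the spread between libraries only. The fit was tested on simulated data.

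Library numbers in the titles form sets, 1 to 3, 4 to 6 and 7 to 9, number 7 not being analysed here. Deviations from the group means correlated at 0.344 to 0.43 across genes in all 7 same-set pairs, so the sets were treated as pairing the libraries and fitted as a block in an alternative. Other alternatives changed the filter, the scaling, the pseudocount, the model and the libraries included.

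The 30 members, the lists of related genes and the markers were chosen with earlier results of these data known. All 30 members are named, with every library's value for those called, and up to 3 called genes with the smallest p per related list and comparison. Some genes that this rule names are not reported here. Exon models are from GENCODE 29 on GRCh38 and promoter windows from RefSeq on GRCh38.p14.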

Additional observations from a re-analysis of the deposited data

How the results depend on the processing

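The count of members called in hypoxia was 1 with each change of filter, scaling, pseudocount and model, 7 with the library-number sets as a replicate block, and 1 to 2 when one library was left out. With SF3B1 siRNA it was 18 to 25 over all alternatives against 20, and for siSF3B1 hypoxia against siCtrl normoxia 12 to 24 against 17. In the hypoxia and the siRNA comparison no called member reversed its direction in any of these fits. The direction of single members over these fits was not followed in the third comparison. The block, which pairs libraries by number set, leaves fewer degrees of freedom, and the cause of the added calls was not tested. The hypoxia comparison has 2 siCtrl normoxia libraries. With one of them left out, the lone library is assumed to vary like the other groups, and 278 or 306 genes were called in place of 741. ELOVL6, the least abundant member, has the fewest reads behind its values.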
